A study of Homo sapiens with 6 samples.

Results

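The gained peaks of MV4-11 are the H3K27ac peaks that appeared in the list of the ANP32B knockdown and had no counterpart in the control list. They were chosen by position: every peak of the MV4-11 sh-ANP32B list on chromosomes 1 to 22 and X that shared no base with any MV4-11 NC peak. Of the 22112 sh-ANP32B peaks on these chromosomes, 3904 met the rule (17.7%), out of 93160 peaks in the 4 lists of the series. The other 18208 sh-ANP32B peaks touched an NC peak and are called shared, and 7121 NC peaks that touched no sh-ANP32B peak are called lost. Because the same pair of lists chose the members, the absence of an NC peak is the rule and not a result.

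H3K27ac, an acetylated form of histone H3, was profiled by CUT&Tag, in which an antibody brings the transposase Tn5 to the marked chromatin, where it cuts and tags the DNA. The series held 6 samples from 2 acute myeloid leukemia (AML) lines. MV4-11 carries a fusion of KMT2A and Kasumi-1 carries RUNX1::RUNX1T1. Each line had 1 control list (NC, a non-targeting hairpin in the study's methods, labelled as untreated), 1 list after ANP32B knockdown by a hairpin delivered with lentivirus under puromycin selection (sh-ANP32B), and 1 IgG library that is not analysed here.

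ANP32B is an acidic leucine-rich nuclear protein that binds core histones, and the series asks how its loss changes histone acetylation in AML cells. H3K27ac marks active promoters and active distal enhancers. Enhancers differ between cell types far more than promoters do, and in myeloid cells they are bound by factors such as PU.1, C/EBP, RUNX and AP-1 proteins. In monocytic differentiation, enhancers of genes for surface receptors, lysosomal proteins and cytokines gain this mark. Each group had 1 list, called after replicates had been merged, without heights or read totals. No difference between the groups was therefore tested, the depth is unknown, and the 95% Wilson intervals in the text cover counting error within the lists and nothing else. The lists held 22112 to 24491 peaks on these chromosomes with median widths of 742 to 1045 bases.

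The central 300 bases of 6 gained peaks are given to show what such regions look like. They are among the widest gained peaks at promoters, outside promoters and at sites also gained in Kasumi-1, with windows that held no protein-coding exon. Not every window of that kind is given. Sequences are those of the forward strand of hg38, and capitals mark matches, on either strand, to the motifs described further on. At promoters the windows were chr17:3892450-3892749 (CAMKK1, a kinase that activates calmodulin-dependent kinases), chr10:104350480-104350779 (upstream of CFAP58, a protein of cilia) and chr3:46406618-46406917 (CCRL2, a chemokine receptor-like protein of myeloid cells). The CFAP58 peak reached 88 bases into the promoter window, so that its centre lay outside it.
CAMKK1: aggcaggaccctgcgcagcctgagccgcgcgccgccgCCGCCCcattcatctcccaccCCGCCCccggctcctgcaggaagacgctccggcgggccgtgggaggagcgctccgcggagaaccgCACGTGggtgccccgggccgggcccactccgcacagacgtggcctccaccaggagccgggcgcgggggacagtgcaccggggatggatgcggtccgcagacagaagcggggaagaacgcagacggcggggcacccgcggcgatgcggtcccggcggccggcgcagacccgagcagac
CFAP58: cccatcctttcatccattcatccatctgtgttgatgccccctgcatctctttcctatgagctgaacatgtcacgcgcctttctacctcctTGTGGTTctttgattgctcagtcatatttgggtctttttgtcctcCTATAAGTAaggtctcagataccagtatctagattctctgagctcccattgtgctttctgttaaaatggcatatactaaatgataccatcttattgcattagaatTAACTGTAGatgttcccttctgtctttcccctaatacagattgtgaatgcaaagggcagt
CCRL2: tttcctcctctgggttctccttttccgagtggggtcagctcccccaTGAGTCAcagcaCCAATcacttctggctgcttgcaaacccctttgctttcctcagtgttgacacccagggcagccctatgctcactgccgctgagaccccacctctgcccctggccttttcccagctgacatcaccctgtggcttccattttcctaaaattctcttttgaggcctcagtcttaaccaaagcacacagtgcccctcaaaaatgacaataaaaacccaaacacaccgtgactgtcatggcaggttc
Outside promoters it was chr9:133134287-133134586 (within RALGDS, an exchange factor for Ral GTPases).
RALGDS: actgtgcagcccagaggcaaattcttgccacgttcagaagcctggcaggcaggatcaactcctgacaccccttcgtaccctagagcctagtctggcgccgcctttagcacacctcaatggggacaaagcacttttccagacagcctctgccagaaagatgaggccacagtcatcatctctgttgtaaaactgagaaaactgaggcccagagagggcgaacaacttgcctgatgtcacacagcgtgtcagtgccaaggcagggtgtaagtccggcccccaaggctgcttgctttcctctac
At sites gained in both lines they were chr7:158673473-158673772 (intron 12 of NCAPG2, a condensin subunit) and chr2:15040778-15041077 (between genes, nearest to LRATD1).
NCAPG2: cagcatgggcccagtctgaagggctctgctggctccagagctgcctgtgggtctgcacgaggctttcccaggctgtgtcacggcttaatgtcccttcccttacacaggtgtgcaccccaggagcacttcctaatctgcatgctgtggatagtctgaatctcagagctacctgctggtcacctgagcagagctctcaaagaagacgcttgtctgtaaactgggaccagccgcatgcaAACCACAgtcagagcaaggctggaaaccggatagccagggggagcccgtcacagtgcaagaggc
LRATD1: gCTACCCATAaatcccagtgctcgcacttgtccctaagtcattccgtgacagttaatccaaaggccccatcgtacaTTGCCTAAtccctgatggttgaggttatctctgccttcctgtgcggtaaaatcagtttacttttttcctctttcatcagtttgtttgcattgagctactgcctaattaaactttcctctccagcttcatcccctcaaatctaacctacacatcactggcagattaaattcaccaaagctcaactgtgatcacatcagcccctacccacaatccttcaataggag
The CAMKK1 window, near a gene start, had a GC content of 76.7% and the LRATD1 window, between genes, 44.3%. The RALGDS window held none of the motifs searched.

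The gained peaks were narrow. Their widths ran from 275 to 2586 bases with a median of 410 (quartiles 335 and 556), against a median of 863.5 bases for shared peaks and 478 for lost peaks. Together they covered 1889331 bases, while the shared peaks covered 21097237. Of the gained peaks, 138 reached 1000 bases (3.53%), compared with 42.1% of shared peaks and 7.91% of lost peaks. In the narrowest of 5 equal classes of sh-ANP32B peaks (275 to 410 bases), 1955 of 4435 peaks were gained (44.1%, 42.6 to 45.5). In the widest class, 25 of 4421 were gained (0.565%, 0.383 to 0.833). A narrow peak has less chance of touching another peak, so width and the rule are linked. The smallest width in the list was 289 bases in NC and 275 in sh-ANP32B, and 242 gained peaks were narrower than the narrowest NC peak.

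**Figure D1:**
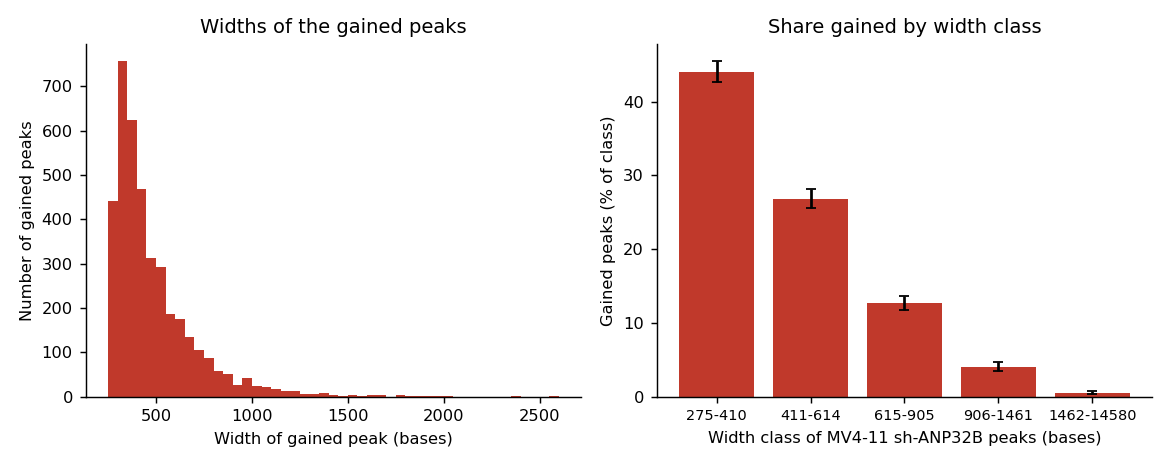
Left, number of gained peaks by width in bins of 50 bases. Right, share of the MV4-11 sh-ANP32B peaks that were gained in each of 5 width classes, as a percentage with 95% Wilson intervals. The share was 44.1% in the narrowest class and 0.565% in the widest.

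Many gained peaks lay close to acetylated chromatin that the control list already held. The median distance to the nearest NC peak was 5576.5 bases, with 4 bases as the shortest distance and 2435185 as the longest. Of the 3904 peaks, 951 lay within 1000 bases of an NC peak (24.4%, 23.04 to 25.7) and 2476 lay within 12.5 kb (63.4%, 61.9 to 64.9), the distance commonly used to join enhancers into clusters. Lost peaks were farther from the nearest sh-ANP32B peak, with 17.2% within 1000 bases (16.4 to 18.1) and 55.5% within 12.5 kb (54.3 to 56.6). These distances are to lists of unequal size, 24491 NC peaks for gained and 22112 sh-ANP32B peaks for lost peaks. The part that list size had in them was not tested. At the edge of the rule, 7 gained peaks lay within 10 bases of an NC peak, and 24 shared peaks overlapped NC peaks by at most 10 bases. Most gained peaks stood alone. When gained peaks with no more than 12.5 kb and no other MV4-11 peak between them were joined, 3279 remained single, 266 formed pairs and 28 formed groups of 3, with 2 longer runs at SMAD3 and IGSF6. The share of sh-ANP32B peaks that were gained ran from 14.6% on chromosome 20 to 20.3% on chromosome 15.

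Gained peaks were distal more often than shared or lost peaks. A promoter window reached 2500 bases both ways from where the canonical transcript of a protein-coding gene starts. Promoters held 543 gained peaks (13.9%, 12.9 to 15.0), against 29.8% of shared peaks (29.1 to 30.5) and 28.5% of lost peaks (27.5 to 29.6). Introns held 1826 gained peaks (46.8%, 45.2 to 48.3), exons 255 (6.53%), and 1280 lay between genes (32.8%, 31.3 to 34.3). A gene's start was inside the peak itself for 2.87% of gained peaks (2.39 to 3.44), 15.5% of shared peaks and 11.3% of lost peaks. The median distance to the nearest start was 26135 bases for gained, 15697.5 for shared and 15296 for lost peaks. The gained share was the lowest of the 3 classes at each width, while lost and shared peaks changed places. In the narrowest class the promoter share was 14.6% of gained (13.1 to 16.3), 32.2% of shared (30.4 to 34.1) and 23.6% of lost peaks (21.98 to 25.2). Among peaks of 615 to 905 bases it was 12.5% of gained (10.01 to 15.5), 30.6% of shared and 35.5% of lost peaks. Weighted to the widths of the gained peaks it was 31.5% of shared and 27.01% of lost peaks.

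**Figure D2:**
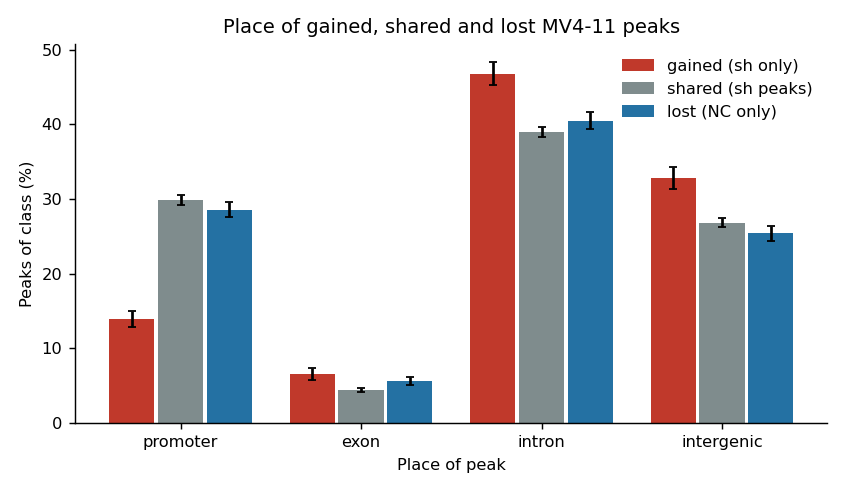
Share of gained (3904), shared (18208) and lost (7121) MV4-11 peaks at promoters, exons, introns and between genes, as a percentage of each class with 95% Wilson intervals. Gained peaks had the smallest promoter share, 13.9%, and the largest intron and intergenic shares, 46.8% and 32.8%.

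Base composition differed in the same way. The median GC content was 49.0% in gained, 51.4% in shared and 51.7% in lost peaks, and the ratio of observed to expected CpG was 0.21, 0.27 and 0.27. Gained peaks at promoters had a median GC content of 57.9%, those in introns 48.6% and those between genes 46.6%. GC content and the promoter share moved together, and the part that base composition had in the peak calls was not tested.

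Letters of 12 transcription factor motifs were searched on both strands in the central 300 bases of every peak. A match is a description of the letters and not of a bound site. The AP-1 motif TGANTCA, bound by FOS and JUN proteins, was in 642 gained peaks (16.4%, 15.3 to 17.6), in 13.4% of shared peaks (13.0 to 13.9), in 8.92% of lost peaks (8.28 to 9.60) and in 14.0% of all sh-ANP32B peaks. Weighted to the widths of the gained peaks it was in 11.7% of shared and 9.04% of lost peaks. Within the peaks outside promoters it was in 17.7% of gained and 16.7% of shared peaks, so that the gap between those classes was smaller there. The PU.1 motif GAGGAAGT, of the factor that directs myeloid and B cell fates, was in 5.74% of gained (5.05 to 6.51), 4.64% of shared (4.34 to 4.95) and 3.95% of lost peaks (3.52 to 4.42), and in 4.83% of all sh-ANP32B peaks. Outside promoters it was in 5.89% of gained and 5.26% of shared peaks. The GATA motif AGATAAG was in 3.84% of gained (3.28 to 4.49), 2.93% of shared, 3.13% of lost and 3.09% of all sh-ANP32B peaks, and outside promoters in 4.11% of gained and 3.58% of shared peaks.

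The motif of SP and KLF factors, GGGCGG, which is common at CpG-rich promoters, was in 468 gained peaks (11.99%, 11.01 to 13.04), 22.1% of shared peaks (21.5 to 22.7), 24.0% of lost peaks (23.01 to 24.99) and 20.3% of all sh-ANP32B peaks. At promoters alone it was in 34.1% of gained and 50.6% of shared peaks, and outside promoters in 8.42% and 10.005%. The cAMP response element TGACGTCA was in 6 gained peaks (0.154%, 0.0705 to 0.335), 0.450% of shared and 0.398% of all sh-ANP32B peaks. The E-box CACGTG, which MYC and related factors bind, was in 4.64% of gained (4.02 to 5.34), 5.95% of shared (5.62 to 6.31), 5.21% of lost and 5.72% of all sh-ANP32B peaks. Shares of gained and shared peaks had overlapping intervals for RUNX (TGTGGTT, 7.91% and 7.29%, 7.40% of all), C/EBP (TTGCNNAA, 15.0% and 15.4%, 15.3% of all) and STAT (TTCNNNGAA, 8.73% and 7.79%, 7.95% of all). They were 10.6% and 9.06% for the interferon-type motif GAAANNGAA (9.34% of all), 31.1% and 27.1% for the NF-Y motif CCAAT (27.8% of all) and 25.3% and 22.4% for the MEF2 motif CTANNNNTA (22.9% of all). Outside promoters the gap was small or absent for MEF2 (26.6% of gained and 26.7% of shared peaks), STAT (8.90% and 8.74%) and the interferon-type motif (10.9% and 10.3%). C/EBP was there in 15.9% of gained and 18.4% of shared peaks, RUNX in 8.48% and 8.88%, CCAAT in 31.5% and 29.04% and CACGTG in 4.64% and 5.48%. CCAAT can lie inside a match of the MEF2 motif, and no other motif of the 12 can lie wholly inside another.

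The Kasumi-1 lists held a peak at a minority of the gained sites. Of the 3904 gained peaks, 1294 overlapped a Kasumi-1 peak (33.1%, 31.7 to 34.6), whereas 73.7% of shared peaks (73.0 to 74.3) and 55.0% of lost peaks (53.8 to 56.1) did. A peak was present in both Kasumi-1 lists at 1004 gained sites, in Kasumi-1 NC alone at 122, in the Kasumi-1 knockdown alone at 168, and in neither at 2610. The Kasumi-1 NC list alone thus held 3.13% of the gained sites and the knockdown alone 4.30%. Over all sh-ANP32B peaks these shares were 2.202% and 3.27%, with the same excess of the knockdown. The lower share held in each width class. It was 28.6% of gained (26.7 to 30.7), 60.6% of shared and 43.7% of lost peaks in the narrowest class, and 41.9% (34.9 to 49.2), 77.3% and 76.5% in the class of 906 to 1461 bases. The share differed more by place: 399 of the 543 gained promoter peaks had a Kasumi-1 peak (73.5%, 69.6 to 77.0), against 27.1% in introns (25.1 to 29.2), 26.1% between genes and 25.9% in exons.

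**Figure D3:**
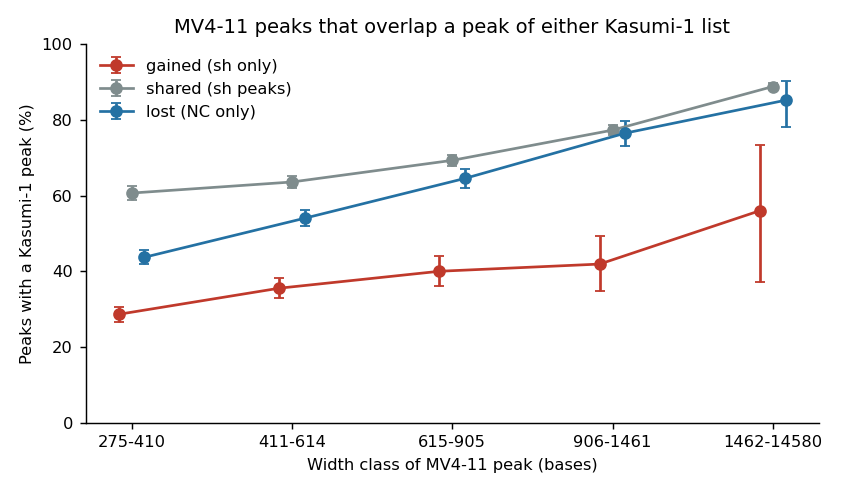
Share of MV4-11 peaks that overlap a peak of either Kasumi-1 list, by width class in bases, with 95% Wilson intervals. Gained peaks lie below shared and lost peaks in each class, with 28.6% in the narrowest and 41.9% in the second widest.

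The gained sites without a Kasumi-1 peak were the distal and GC-poorer ones. Their median GC content was 45.9%, their promoter share 5.52% (4.70 to 6.46) and their median distance to an NC peak 8347 bases. The sites with a peak in both Kasumi-1 lists had a median GC content of 55.0%, a promoter share of 35.1% (32.2 to 38.1) and a median distance of 1878.5 bases. Within 1000 bases of these 1004 sites, the bases under peaks in Kasumi-1 had a median of 1219 in NC and 1261.5 in sh-ANP32B, with a median difference of 23 bases. The same difference was 23 bases at shared MV4-11 peaks and 10 at lost ones. This was not tested.

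In total, 131 gained peaks (3.36%) overlapped a peak that Kasumi-1 had gained as well. This was close to the 3.29% of all sh-ANP32B peaks (3.06 to 3.53), 3.27% of shared and 3.23% of lost peaks. The 5 widest were near HLX, NCAPG2, SARAF, LRATD1 and SOWAHD. The one near HLX, a homeobox factor, was the widest gained peak of all at 2586 bases, and lay 218430 bases from the HLX start. Kasumi-1 NC had no base under a peak there and Kasumi-1 sh-ANP32B had 464. In intron 12 of NCAPG2 (chr7:158672737-158674508) the peak of 1772 bases covered 478 bases of a Kasumi-1 sh-ANP32B peak, and the peak 82386 bases from SARAF, whose product limits calcium entry, covered 576. At the peak 9169 bases from SOWAHD (chrX:119767757-119768941, 1185 bases) the Kasumi-1 overlap was 368 bases. The peak of 1380 bases with LRATD1 as nearest gene lay 407521 bases from its start, and the overlap there was 288. At each of the 5 sites the Kasumi-1 peak thus covered a part of the MV4-11 peak. The 5 widest gained peaks with a peak in both Kasumi-1 lists lay near STARD5 (in intron 16 of IL16, a cytokine gene), TPM4, CAMKK1, UBXN6 (in intron 11 of CHAF1A, a chromatin assembly subunit) and SMAD3. At UBXN6 both Kasumi-1 lists covered the whole peak, 1634 of 1634 bases.

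The other widest gained peaks outside promoters were spread over the genome. Within RALGDS (chr9:133133246-133135626) the peak of 2381 bases met a Kasumi-1 NC peak over 492 bases and no Kasumi-1 sh-ANP32B peak. In intron 2 of TTLL4 a peak of 2037 bases had no counterpart in either Kasumi-1 list, nor had the peak of 1775 bases that lay 47277 bases from RAP2B, a small GTPase. The peak near CLIC5 (1912 bases) lay 317218 bases from its start, and the peak near KLF14 (1827 bases) 190734 bases. Near TPM4, a tropomyosin gene, the peak of 1866 bases met 1019 bases in Kasumi-1 NC and 1045 in its knockdown.

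Of 19962 protein-coding genes, 315 had a promoter peak in MV4-11 sh-ANP32B and none in NC (1.58%), while 1742 showed the reverse and 5412 had one in both. Most of these 315 promoters were already marked in the other line: 231 had a promoter peak in both Kasumi-1 lists (73.3%, 68.2 to 77.9), 16 in Kasumi-1 NC alone, 5 in Kasumi-1 sh-ANP32B alone and 63 in neither. Among genes without a promoter peak in either MV4-11 list, 15.6% had one in both Kasumi-1 lists (14.9 to 16.2). The share was 95.7% for genes that kept their MV4-11 promoter peak and 88.0% for those that lost it. A gained peak lay in the promoter window of 598 genes, but 293 of these windows held an NC peak as well.

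Among the genes that gained a promoter peak, those with the widest peaks included housekeeping and immune genes. SLC25A5, the mitochondrial carrier of ADP and ATP, had 0 promoter bases under peaks in MV4-11 NC, 1107 in MV4-11 sh-ANP32B, 1362 in Kasumi-1 NC and 1690 in its knockdown. IMP3, which takes part in ribosomal RNA processing, had 0, 1067, 2365 and 2424 in the same order, and TESK1, a kinase of the actin cytoskeleton, 0, 1033, 2573 and 1472. These 3 promoters were marked in Kasumi-1 with and without the knockdown. HAVCR2, the inhibitory receptor TIM-3 that is found on AML stem cells, had 0, 1071, 0 and 0 bases, and CCRL2 0, 1373, 0 and 0. IFITM10 had 0, 1464, 0 and 0. IGSF6, an immunoglobulin superfamily gene of myeloid cells, had 0, 1528, 2073 and 2458. The gained peaks of CFAP58 (1583 bases), CAMKV (1299) and RAB22A (1228) reached into the promoter window by 88, 133 and 280 bases.

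When each gained peak was given to the protein-coding gene with the nearest start, 3179 had one within 100000 bases. They fell to 2405 genes (12.0% of all genes, and 29.5% of the 8139 genes with any sh-ANP32B peak as nearest). A single gained peak was found at 1883 of these genes, 361 had 2, and 161 had 3 or more. Lost peaks were present at 1039 of the 2405 genes, and 523 had no shared or lost peak at all. The nearest start is not always the gene that holds the peak, and both are given for the loci with the most gained peaks.

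SMAD3, the transducer of TGF-beta and activin signals, had 11 gained peaks as the nearest gene, 3 lost and 14 shared ones. One lay upstream of the gene and 10 in its introns, from 15276 to 81269 bases past the start. Of these, 5 formed the longest run without another MV4-11 peak, over chr15:67115124-67125172, with widths of 1055, 1309, 584, 421 and 335 bases. None of these 5 met a peak in Kasumi-1. The widest SMAD3 peak, chr15:67041413-67042963 with 1551 bases, met 869 bases in Kasumi-1 NC and 875 in its knockdown. Within 100000 bases of the SMAD3 start, peaks covered 21014 bases in MV4-11 NC, 24791 in MV4-11 sh-ANP32B, 29831 in Kasumi-1 NC and 31077 in its knockdown. At the promoter the order was the opposite, with 775 bases in MV4-11 NC and 0 in its knockdown.

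PPIF, which encodes cyclophilin D of the mitochondrial pore, also had 11 gained peaks, but 9 of them lay inside ZMIZ1, a transcriptional coactivator gene next to it. ZMIZ1 held 12 gained peaks within its body, 4 lost and 25 shared ones. Bases under peaks within 100000 bases of the PPIF start were 44278 in MV4-11 NC, 56056 in MV4-11 sh-ANP32B, 45092 in Kasumi-1 NC and 44016 in its knockdown. RUNX1, a master factor of blood formation, held 11 gained, 2 lost and 36 shared peaks over 1216867 bases. ZMIZ1 and RUNX1 were named for the peaks in their bodies after their values were seen, and long genes hold more peaks.

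PFKFB3, an enzyme that drives glycolysis, had 8 gained peaks, 0 lost and 3 shared. Peaks of 660 and 280 bases lay at its promoter (chr10:6202988-6203647 and chr10:6204038-6204317), 38389 and 39439 bases from the nearest NC peak. The promoter bases under peaks were 0 in MV4-11 NC and 940 in its knockdown, but 1555 in Kasumi-1 NC and 0 in its knockdown, so that the order of NC and knockdown was reversed between the lines. Within 100000 bases the values were 2731, 7361, 6763 and 4942 in the same order. CD44, an adhesion receptor for hyaluronan, had 6 gained peaks, of which 5 lay upstream between chr11:35041952-35042903 and chr11:35066090-35066472. Peak bases near CD44 were 13297 in MV4-11 NC, 15949 in MV4-11 sh-ANP32B, 5753 in Kasumi-1 NC and 6152 in its knockdown. PLIN2, a coat protein of lipid droplets, had 6 gained and 0 lost peaks, none of which met a Kasumi-1 peak, and 12129, 17025, 8419 and 9992 peak bases. ATXN1, a transcriptional repressor, had 7 gained and 5 lost peaks, and 13337, 13889, 6287 and 6631 bases.

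**Figure D4:**
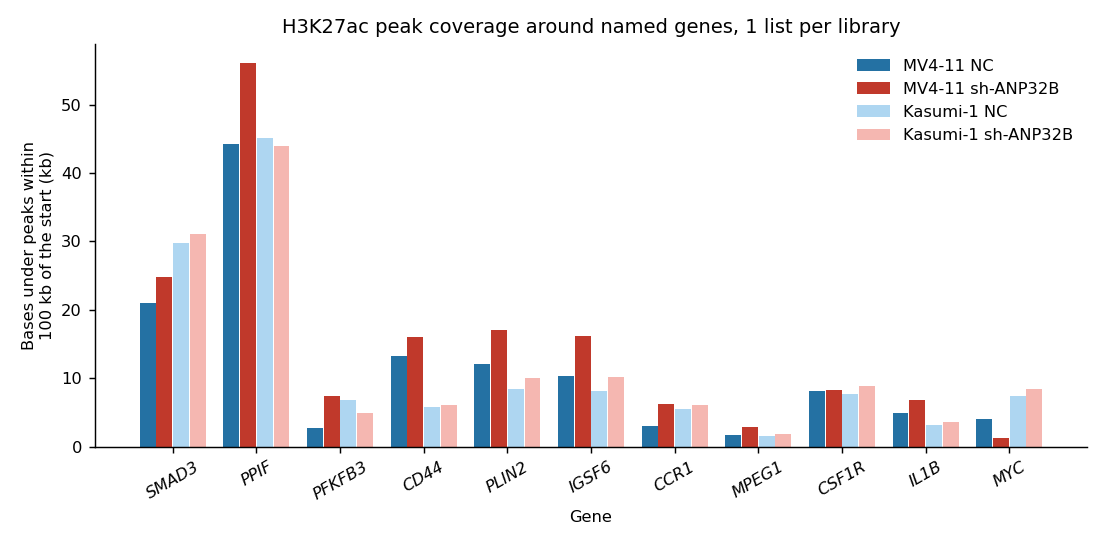
Bases under H3K27ac peaks, in kilobases, within 100 kb to each side of the start of 11 of the named genes in the 4 libraries (1 list each, so without error bars). The MV4-11 sh-ANP32B bar is above the MV4-11 NC bar at each gene shown except MYC, where NC had 4070 bases and sh-ANP32B 1281.

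Of 15 gene lists, the list of monocyte and macrophage genes had the most gained peaks. Of its 32 genes, 16 had a gained peak as nearest start (50%, 33.6 to 66.4), against 12.0% of all genes and 29.5% of genes with any sh-ANP32B peak. The 32 genes had 28 gained, 21 lost and 57 shared peaks, so that 32.9% of their sh-ANP32B peaks were gained (23.9 to 43.5). Over all genes 3179 gained, 6124 lost and 15602 shared peaks gave 16.9%. When a peak counted as gained unless an NC peak overlapped at least 50% of both, the share was 44.7% (34.6 to 55.3) against 39.4% over all genes, and the interval held the latter. The median gene of the list had 0.5 gained peaks and the median over all genes was 0. Gained peaks were fewer at markers of other lineages: 0 of 16 T and NK cell genes, 1 of 10 B cell genes (PAX5), 2 of 16 erythroid and megakaryocyte genes and 3 of 15 neutrophil granule genes had one. These lists have few peaks of any kind, and by share of sh-ANP32B peaks gained they did not all lie below the monocyte list. The neutrophil list had 3 gained and 6 shared peaks (33.3%), the erythroid and megakaryocyte list 2 and 5 (28.6%), the B cell list 1 and 10 (9.09%) and the T and NK cell list 0 and 9. The promoters of CD3E, CD3D, CD2 and HBB had no base under a peak in any of the 4 lists. The promoters of CD14, a monocyte surface receptor, and CSF1R had none either.

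**Figure D5:**
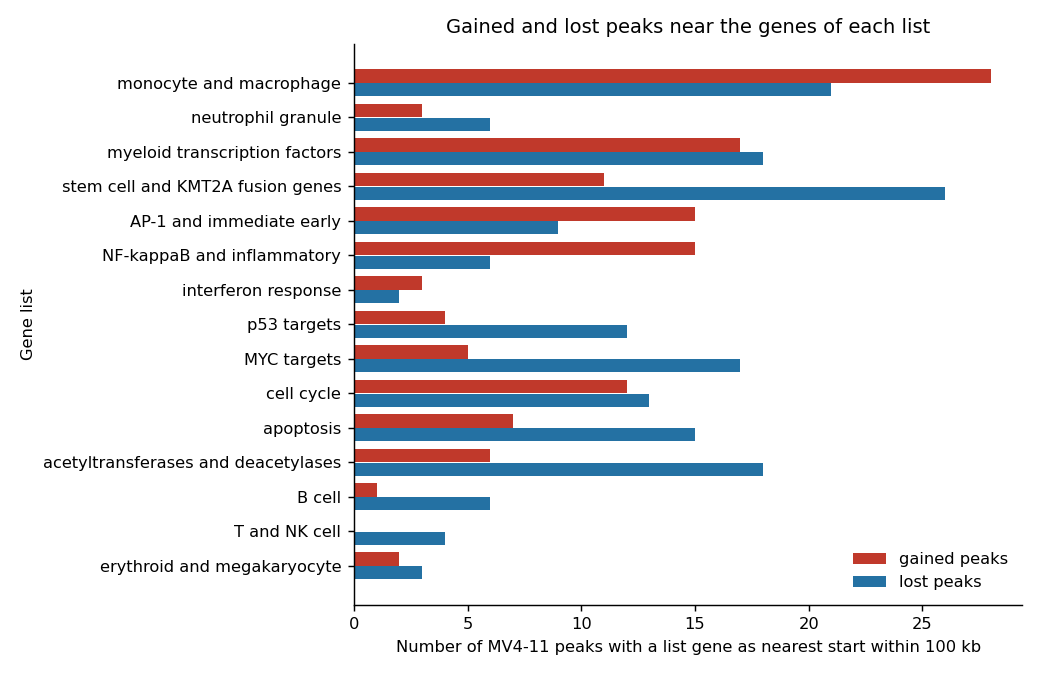
Number of gained and lost MV4-11 peaks whose nearest start, within 100 kb, was that of a gene of each of the 15 lists. Gained peaks outnumber lost peaks at the lists of monocyte and macrophage (28 and 21), NF-kappaB and inflammatory (15 and 6), AP-1 and immediate early (15 and 9) and interferon response genes (3 and 2), and lost peaks are more numerous at the others.

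CSF1R, the receptor of macrophage colony-stimulating factor, had gained peaks of 885, 845 and 480 bases, placed 20306 to 33776 bases past its start. At the first 2 of these, Kasumi-1 had gained a peak as well. MPEG1, a pore-forming protein of macrophages, had 3 gained peaks of 646, 527 and 401 bases, from 9176 to 11363 bases upstream, and none in Kasumi-1 at these places. Around MPEG1 the peak bases were 1654 in MV4-11 NC, 2854 in MV4-11 sh-ANP32B, 1511 in Kasumi-1 NC and 1847 in its knockdown.

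CCR1, a receptor for inflammatory chemokines, had 4 gained peaks (565, 486, 436 and 304 bases) and no lost ones. The one of 436 bases, chr3:46208713-46209148, lay 400 bases from the start. CCR1 promoter bases were 0 in MV4-11 NC, 436 in MV4-11 sh-ANP32B, 674 in Kasumi-1 NC and 1510 in its knockdown. FCN1, a ficolin of monocytes, had 0, 284, 444 and 0 promoter bases, and TREM1, a receptor that amplifies inflammation, 0, 297, 0 and 0. Against these 3 gained promoters of the monocyte list, 3 lost their peak and 12 kept one. Promoter bases of LYZ, the lysozyme gene, were 683 in MV4-11 NC and 324 in its knockdown, and within 100000 bases of TREM1 the values were 2374 and 1395. IGSF6 had 4 gained peaks in a row over chr16:21649285-21657564, with 0 lost and 2 shared peaks, and 10369 bases in MV4-11 NC against 16118 in MV4-11 sh-ANP32B within 100000 bases. ITGAM, ITGAX and CTSB, which encode integrin chains and a lysosomal protease, had 2 gained peaks each, from 322 to 560 bases wide.

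A gained peak was found at 11 of the 24 NF-kappaB and inflammatory genes (45.8%, 27.9 to 64.9), against 12.0% of all genes and 29.5% of genes with any sh-ANP32B peak. The 24 genes had 15 gained, 6 lost and 48 shared peaks. Of their sh-ANP32B peaks 23.8% were gained (15.0 to 35.6), an interval that holds the 16.9% over all genes. IL1B, which encodes the cytokine interleukin-1 beta, gained a peak of 357 bases over its start (chr2:112836430-112836786) and one of 527 bases further upstream. Its promoter bases were 0 in MV4-11 NC, 357 in MV4-11 sh-ANP32B and 0 in both Kasumi-1 lists. CXCL8, NFKBIA and TNFAIP3, a chemokine and 2 inhibitors of NF-kappaB signalling, had 2 gained peaks each within 100000 bases. The list of AP-1 and immediate early genes had 15 gained, 9 lost and 66 shared peaks. A gained peak was found at 8 of its 20 genes (40%, 21.9 to 61.3), against 12.0% of all genes and 29.5% of genes with any sh-ANP32B peak. Of the sh-ANP32B peaks of this list 18.5% were gained, near the 16.9% over all genes. DUSP5, a phosphatase of ERK, had 4 gained peaks of 798, 644, 535 and 308 bases, none of them at a Kasumi-1 peak. It also had 1 lost and 8 shared peaks, and its coverage by MV4-11 peaks was lower after the knockdown. Promoter bases of DUSP5 went from 1321 to 583, and bases within 100000 of its start from 12865 to 10905. FOS had 3 gained peaks, of 583, 319 and 316 bases, and each met a peak in both Kasumi-1 lists. For FOS the same values rose, from 2356 to 2665 and from 21721 to 23569.

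Of 24 myeloid transcription factor genes 9 had a gained peak (37.5%, 21.2 to 57.3), against 12.0% of all genes and 29.5% of genes with any sh-ANP32B peak. The 24 genes had 17 gained, 18 lost and 87 shared peaks. The share of their sh-ANP32B peaks that were gained was 16.3%, near that over all genes. CEBPB, KLF2 and GFI1 had 3 gained peaks each, and the promoter bases of all 3 were fewer in MV4-11 sh-ANP32B than in NC: 2229 and 1498 for CEBPB, 1519 and 944 for KLF2, and 3335 and 2707 for GFI1. ID2, an inhibitor of helix-loop-helix factors, and PPARG, a nuclear receptor of lipid metabolism, gained promoter peaks of 358 and 457 bases. PPARG promoter bases were 0 in MV4-11 NC, 457 in MV4-11 sh-ANP32B, 1420 in Kasumi-1 NC and 450 in its knockdown. Among 24 stem cell and KMT2A fusion genes, 6 had a gained peak, with 11 gained, 26 lost and 54 shared peaks, and the gained share of 16.9% was that over all genes. HOXA7 and MEF2C, both linked to KMT2A-driven leukemia, gained promoter peaks of 418 and 322 bases. HOXA7 promoter bases were 0, 418, 5001 and 5001 in the order above, and those of MEF2C 0, 322, 482 and 0. RUNX1 had 4 gained peaks within 100000 bases, all in introns and none at a Kasumi-1 peak.

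The remaining lists had fewer gained than lost peaks, or few of either. MYC target genes had 5 gained, 17 lost and 45 shared peaks at 36 genes. The share gained was 10% (4.35 to 21.4). No promoter window of the list had a peak in MV4-11 sh-ANP32B and none in NC, 9 had the reverse and 26 had a peak in both. Few promoters of the list were thus without an NC peak and able to gain one. Over all genes 1742 promoters lost their peak and 5412 kept one, and the difference from these counts was not tested. A gained peak did lie in the promoter window of EIF4E, which held an NC peak as well. The 5 gained peaks lay at RRP12 (2 peaks), MCM5, EIF4E and TFRC. Genes of p53 response had 4 gained and 12 lost peaks, and apoptosis genes 7 gained and 15 lost. Counted as for MYC targets, 7 promoters of the p53 list were lost, 11 kept and none gained. Cell cycle genes had 12 gained, 13 lost and 37 shared peaks. A gained peak was found at 9 of the 30 genes (30%, 16.7 to 47.9), against 12.0% of all genes and 29.5% of genes with any sh-ANP32B peak. Of the sh-ANP32B peaks of the cell cycle list 24.5% were gained, against the 16.9% over all genes and the 23.8% of the NF-kappaB list. Counted in the same way, 7 promoters of the cell cycle list were lost, 18 kept and none gained. A gained peak lay in the promoter window of BUB1, which held an NC peak as well. Acetyltransferase and deacetylase genes had 6 gained and 18 lost peaks, with single gained peaks at CREBBP, KAT8 and NCOA1. Interferon response genes had 3 gained and 2 lost peaks. One of the gained ones was at the promoter of GBP2, an interferon-induced GTPase, with 0 bases in MV4-11 NC, 407 in MV4-11 sh-ANP32B and 0 in both Kasumi-1 lists.

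Within 100000 bases of its start, ANP32B itself had no gained peak. Its promoter bases were 3433 in MV4-11 NC, 2631 in MV4-11 sh-ANP32B, 3447 in Kasumi-1 NC and 3432 in its knockdown. A hairpin acts on the RNA, so that these values do not check the knockdown. ANP32A, its paralog, had gained peaks of 449 and 331 bases in introns, with 4 lost ones. Within the same distance MYC had no gained and 2 lost peaks, while 5 gained peaks with MYC as nearest start lay 298742 to 504102 bases away. MYC had promoter bases of 893 in MV4-11 NC, 0 in MV4-11 sh-ANP32B, 3828 in Kasumi-1 NC and 3843 in its knockdown. CTPS1, MCM6, RANBP1, TRMT2A, CCNB1, CDK2 and BCL2 had no gained peak as nearest gene, and PLK1, a mitotic kinase, had 1 of 378 bases.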

How the data were processed

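H3K27ac CUT&Tag libraries of MV4-11 and Kasumi-1 were used, 1 peak list per group. Per the study's methods the authors aligned reads to hg38 with Bowtie2, removed duplicates with Picard, merged replicates with samtools and called peaks with MACS at a q-value of 0.01. The submitters' processing notes name Bowtie2 2.4.4 and MACS3 3.0, and the methods give other versions. How the IgG libraries were used is not given in the sources used here. The deposited lists hold each peak's sequence name, start, end and length in bases, counted from 1, with no height, p-value or count. The depth is therefore unknown and wide and narrow peaks could not be weighted by signal.

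Peaks on chromosomes 1 to 22 and X were compared by overlap of at least 1 base. On chromosome Y, 5 of 24 MV4-11 sh-ANP32B peaks had no NC peak, as had 183 of 763 on other sequences, and these were left out. Gene starts were those of the canonical transcripts of 19962 protein-coding genes in GENCODE 44. Promoters reached 2500 bases to each side. Peaks touching no promoter were placed in exons, introns or between genes, and were given to the nearest start within 100000 bases. GC content and motifs were read from hg38. Intervals are Wilson intervals at 95%. With 1 list per group no test was possible. The rule for named genes took the nearest genes of the 10 widest gained peaks outside promoters, the 10 genes with the widest gained promoter peaks, the 8 with the most gained peaks, the 5 widest peaks also gained in Kasumi-1 and the 5 widest with both Kasumi-1 lists, genes of the 15 lists with a gained promoter peak or at least 3 gained peaks, and 11 genes of the study. Other list genes are named from their list's counts, after their values were seen. The members, lists and rules were chosen with earlier results of these data known. Some items that the rules name are not reported here. Overlap code was tested on simulated lists. numpy 2.4.6, pandas 2.3.3, pysam 0.24.0 and matplotlib 3.10.9 were used.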

Additional observations from a re-analysis of the deposited data

Results flagged for a closer look

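At 3 of the named genes the promoter went one way in MV4-11 and the other way in Kasumi-1. These genes were picked for this pattern, and genes were named in part for a gained MV4-11 promoter peak. The directions are thus the rule of choice and not a result. The MV4-11 promoter had bases under a peak with the knockdown and none without it, and the Kasumi-1 promoter had them without the knockdown and none with it. For PFKFB3 the difference between sh-ANP32B and NC was 940 bases in MV4-11 and -1555 in Kasumi-1. For FCN1 it was 284 and -444 bases, and for MEF2C 322 and -482. At TESK1 and PPARG the promoter bases also rose in MV4-11 and fell in Kasumi-1, but some remained in the Kasumi-1 knockdown. Of all 315 genes that gained a promoter peak in MV4-11, 16 had a Kasumi-1 promoter peak in NC alone and 5 in the knockdown alone. Among the 12493 genes without a promoter peak in either MV4-11 list, these numbers were 470 and 103. With 1 list per group, none of these differences was tested. The gained peak at FCN1, 284 bases wide, was close to the smallest width in the MV4-11 sh-ANP32B list, 275 bases.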

How the results depend on the processing

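No paired analysis was possible because each group had 1 list and no replicate numbers. Of 59 values under alternatives, 23 stayed within the 95% interval of the reported share or median, or within 1.5 times the reported count, and 36 moved. Asking that no NC peak overlap at least 50% of both peaks gave 8752 gained peaks, a median width of 482 bases, a promoter share of 22.4%, an intergenic share of 27.8%, a median GC content of 50.3%, a Kasumi-1 peak at 54.1%, 324 sites with a peak in the Kasumi-1 knockdown alone and 238 in Kasumi-1 NC alone, and 83.7% within 12.5 kb of an NC peak. Asking for no NC peak within 1000 bases gave 2954 peaks, with a promoter share of 12.1%, 34.9% intergenic, GC 48.6%, a Kasumi-1 peak at 28.4% and 51.7% within 12.5 kb. Keeping gained peaks of at least 1000 bases left 138 with a median width of 1172 bases, 44.2% intergenic, GC 47.6%, a Kasumi-1 peak at 42.03%, 9 sites with a peak in the Kasumi-1 knockdown alone and 9 in NC alone, and 61.6% within 12.5 kb. With 1 common smallest width and joining gap of 357 bases in all 4 lists, 2932 peaks and 292 promoter genes were gained, the median width was 505 bases, GC 48.6%, a Kasumi-1 peak was at 35.5% and 59.1% lay within 12.5 kb. A promoter window of 1000 bases gave 9.66%, gene bodies of all annotated genes left 21.2% intergenic, and Kasumi-1 peaks covered at least 50% of 28.6% of gained peaks. The cause of these moves was not tested beyond what each alternative changes by its construction.

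The share of sh-ANP32B peaks that were gained was recomputed for 3 gene lists and all genes under settings chosen after seeing the data. Under the overlap of 50% it was 44.7% for monocyte and macrophage genes, 33.3% for NF-kappaB and inflammatory genes, 32% for MYC targets and 39.4% for all genes, so that the distance of the monocyte list from all genes was 5.34 percentage points instead of 16.01, and the 95% interval of the list (34.6 to 55.3) held the value for all genes. With no NC peak within 1000 bases, these shares were 25.9%, 19.05%, 4% and 12.7%. With the common width and gap they were 27.9%, 19.3%, 7.5% and 14.96%, and with nearest starts within 50000 bases 31.2%, 24.5%, 10% and 16.2%. The lists hold no heights or read totals, so that a gained peak cannot be told apart from one that lay just under the calling threshold in NC.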

Other observations

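Some genes held many gained and few lost peaks within their bodies. They were picked after the counts were seen, and long genes hold more peaks. GAS7, MBP and TNS3, of which TNS3 encodes a tensin of cell adhesions, held 8 gained peaks each, with 2, 1 and 3 lost and 21, 20 and 14 shared. INPP5D, the phosphatase SHIP-1 that restrains signalling in myeloid cells, held 7 gained, 2 lost and 9 shared peaks, and FOXO3, a forkhead factor, held 5, 1 and 4. METTL9 held 6 gained, 0 lost and 8 shared peaks, some of them those described at IGSF6, which lies within it. The reverse was seen at MAD1L1, a mitotic checkpoint gene, with 4 gained, 25 lost and 30 shared peaks. Outside the promoters of protein-coding genes, 185 gained peaks lay within 2500 bases of the start of a long non-coding RNA gene (4.74%, 4.12 to 5.45), against 6.45% of shared peaks (6.11 to 6.82).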
